A study of Canis lupus familiaris with 23 samples.

Results

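The experiment described here is the addition of a Tgf-beta inhibitor to organoids grown from dog hair follicles. Its libraries were chosen by their labels: organoids of follicle origin that were not in differentiation medium, with or without the inhibitor. They are 9 of the 23 libraries of the series, 5 with the inhibitor and 4 without. The series profiled dog skin, hair follicles, epidermis and the epidermal organoids derived from them, by CEL-seq2, which counts transcripts from their 3′ ends. All 9 organoid libraries were prepared from bulk sorted cells at day 7 of culture. Early passage means passages 0 to 1 and later passage, which the labels call mid-term, means passages 3 to 6. Both treatments share this day and these passage classes. With the inhibitor there were 3 early and 2 later libraries, and without it 2 early and 2 later ones. The labels give no genotype, breed or age of the dogs, name neither the inhibitor compound nor its dose, and do not describe the sorting gate. The titles of the inhibitor libraries carry the code EFA83, which the labels do not explain, so whether the media differed in anything besides the inhibitor is not given in the sources used here. Nor do the labels say whether replicates are separate dogs, cultures or preparations, so the spread between replicates may be technical. The p-values rest on that spread, estimated within the 12 groups of all 23 libraries of the series.

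Tgf-beta is released from a latent complex outside the cell and binds a receptor pair, TGFBR2 and TGFBR1. The activated TGFBR1 kinase phosphorylates SMAD2 and SMAD3, which enter the nucleus with SMAD4 and switch target genes on or off. In keratinocytes the pathway is known for slowing division, for raising matrix genes such as FN1 and COL7A1, and for inducing its own brakes, PMEPA1 among them. Inhibitors of the TGFBR1 kinase are a common ingredient of epithelial organoid media.

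Total counts of the 9 libraries ran from 734647 to 4822410, so that a gene with no count could stand at up to 4.11 CPM in the shallowest and 0.626 CPM in the deepest (3 counts per library, counting error only). All 9 expressed the keratinocyte genes checked. KRT5 and KRT14, the keratin pair of basal keratinocytes, stood at 18828 to 40818 CPM and 17351 to 38138 CPM. The leukocyte gene PTPRC had no count in any of the 9, and the endothelial gene PECAM1 had 2 counts in all. Other markers of these cells were not absent. The endothelial genes VWF and CDH5 had 50 and 32 counts over the 9, the myeloid gene CD14 19 and the T cell gene CD3E 3. A pair of early libraries, both numbered 1, stood apart. On the first principal component, which held 49.1% of the variance of the 1000 most variable genes, the libraries with the inhibitor lay between 5.67 and 47.5 and those without it between -31.4 and -14.0. The highest score was that of early replicate 1 with the inhibitor, and the next was 15.0. The share of counts from mitochondrially encoded genes in that library was 5.35%, against 15.5 to 26.9% in the other 8. The lowest score was that of early replicate 1 without the inhibitor, the shallowest library. Its 7 melanocyte genes summed to 282 CPM, against 7.12 to 19.3 CPM in the other 8. Counts of called genes are also given without these libraries in the comparisons and gene lists whose counts change. The share of mitochondrial counts and the melanocyte sum were not tested as a part of any result.

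With the inhibitor, a small set of genes changed strongly and most of the transcriptome did not pass the test. Of 9888 tested genes, 265 were called by edgeR's quasi-likelihood test (adjusted p under 0.05), which is 2.68%. They divide into 190 rises (1.92% of tested genes) and 75 falls (0.758%). Among the rises 91 exceeded 4-fold, and among the falls 34. The median log2 change of all tested genes was 0.000902. All 5 inhibitor libraries lay above all 4 others in 145 of the 190 rises, against 484 of all tested genes (4.89%), and below them in 54 of the 75 falls, against 351 (3.55%). The genes were called on these same libraries, which favours such separation, so it is a description and no separate support. Early replicate 1 with the inhibitor was the highest of its 5 libraries in 108 of the 190 rises, and early replicate 1 without it the lowest of its 4 in 107. Without the first of these libraries 228 genes were called, without the second 119, and without both 130. Leaving out other single libraries also lowered the count by more than 1.5 times, to 109 and 148 without later replicate 1 or 2 of the inhibitor group, and to 165, 120 and 168 without early replicate 2, later replicate 1 or later replicate 2 of the untreated group. Scaling by library totals in place of trimmed means (TMM) called 249 genes, of which 53.4% were higher, against 71.7% by TMM. The median of all genes then shifted to -0.13 on the log2 scale. CPM values below are scaled by TMM, and every log2 change is the mean of the early and later differences with its standard error unless a passage is named. The 12 largest rises and 12 largest falls named below had to show no overlap between the groups. Among them are RGS2, TIMP1, PMEPA1, COL7A1, FST, COL5A1, FN1, MMP1, MMP3, SERPINB2, CNFN, KRT10, DEGS2, ALOX12B and SDR9C7. For genes named by size the lack of overlap was a condition of entry and not a result.

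RGS2, a regulator that shortens G protein signalling, had the smallest p of all genes and the largest rise among the genes named by rule. It stood at 4.04 and 7.05 CPM in the early and 6.83 and 9.70 CPM in the later libraries without the inhibitor, against 176, 146 and 73.9 CPM early and 386 and 396 CPM later with it. Every inhibitor library was above every library without it, with no overlap. The log2 change was 4.99 ± 0.36, a 31.8-fold rise (edgeR adjusted p = 3.77e-08). The later libraries with the inhibitor were higher than the early ones, but the difference between the passages' effects, 1.14 ± 0.67 on the log2 scale, was not called. TIMP1, a secreted inhibitor of matrix metalloproteinases, was the other marker that rose. Its levels were 110.5 and 263 CPM in the early and 106 and 211 CPM in the later libraries without the inhibitor, against 1605, 2407 and 3691 CPM early and 3512 and 2038 CPM later with it. The lowest inhibitor library was again far above the highest of the others, and the log2 change was 3.95 ± 0.38 (15.4-fold, edgeR adjusted p = 5.37e-06).

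PMEPA1, a membrane protein that binds SMAD2 and SMAD3 and is itself a Tgf-beta target, fell to levels near the detection floor. It was measured at 28.3 and 37.00 CPM in the early and 31.3 and 34.6 CPM in the later libraries without the inhibitor, against 4.07, 0.581 and 4.38 CPM early and 0.743 and 2.01 CPM later with it. The 4 libraries without the inhibitor lay between 28.3 and 37.0 CPM, and the highest with it was 4.38 CPM. The log2 change was -3.94 ± 0.49, a 15.3-fold fall (edgeR adjusted p = 1.39e-04). COL7A1, the collagen of the anchoring fibrils that tie epidermis to dermis, read 36.4 and 67.4 CPM in the early and 109 and 108 CPM in the later libraries without the inhibitor, against 6.78, 20.3 and 13.6 CPM early and 9.66 and 3.02 CPM later with it. The groups did not overlap, and the untreated later libraries were above the untreated early ones. COL7A1 fell by 2.98 ± 0.41 on the log2 scale (7.9-fold, edgeR adjusted p = 4.06e-04). All 4 markers kept their calls under each of the 19 alternatives tried.

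**Figure D1:**
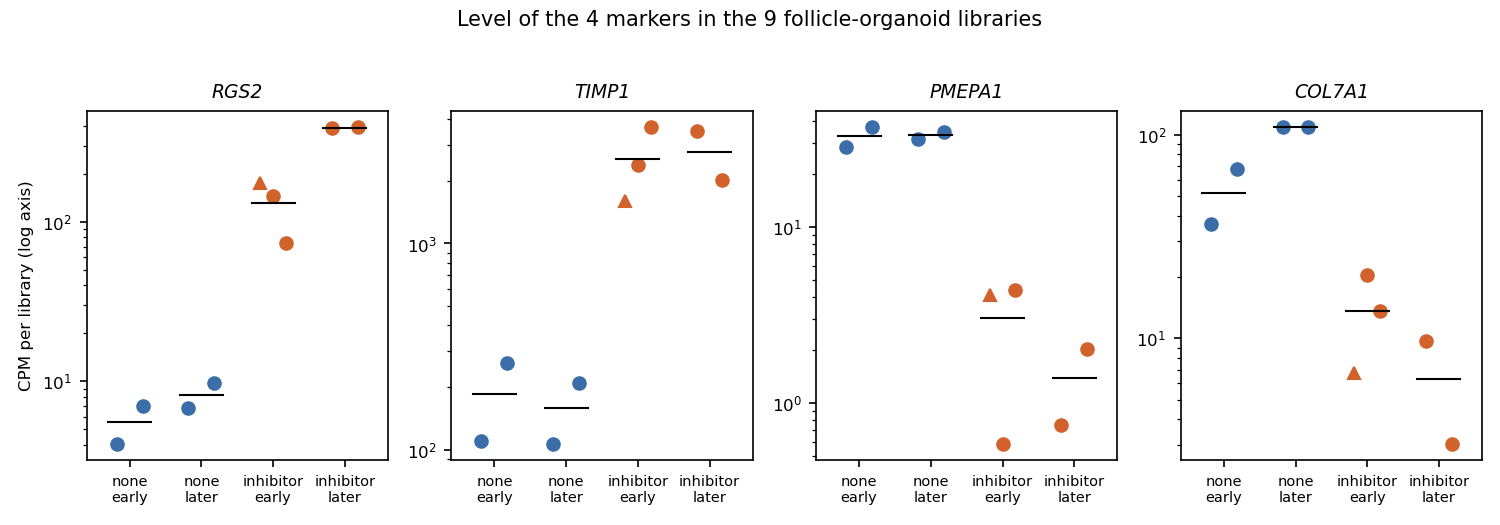
Level of RGS2, TIMP1, PMEPA1 and COL7A1 in each of the 9 libraries, in CPM on a log axis, by treatment and passage class; points are libraries, bars are group means, and the triangle is early replicate 1 with the inhibitor. For each gene the 5 libraries with the inhibitor (orange) lie entirely above (RGS2, TIMP1) or below (PMEPA1, COL7A1) the 4 without it (blue).

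Most of the pathway's own upstream genes were not called. Among 18 tested ligands, latency proteins and activators, 2 fell and none rose, with a median log2 change of -0.47. Among all tested genes 0.758% fell and 1.92% rose. FST encodes follistatin, a secreted protein that traps activin. Its level was 79.5 and 58.6 CPM in the early and 136 and 175 CPM in the later libraries without the inhibitor, against 18.98, 6.39 and 18.4 CPM early and 17.8 and 18.1 CPM later with it. No library with the inhibitor came near the lowest without it, and FST fell by 2.65 ± 0.42 (log2, 6.29-fold, edgeR adjusted p = 0.00118). DCN, the proteoglycan decorin, which can bind Tgf-beta, was the other fall, and it was seen at early passage: 124 and 116 CPM without against 19.7, 16.9 and 25.8 CPM with the inhibitor. At later passage the values were 13.4 and 15.6 CPM and 15.6 and 13.1 CPM, which overlap. The DCN call was lost under 10 of 19 alternatives, among them leaving out either or both early libraries numbered 1. The list held 1 fall without early replicate 1 of the untreated group, and 2 falls without that of the inhibitor group or without both. TGFB2, a ligand gene, ranged from 31.2 to 99.99 CPM without and from 2.01 to 77.8 CPM with the inhibitor, and its log2 difference of -1.38 ± 0.42 did not pass (edgeR adjusted p = 0.092), though 2 of the 19 alternatives called it. Scaling by library totals called 4 falls in this list. ITGB6, the integrin subunit that releases latent Tgf-beta in epithelium, had a log2 difference of -1.06 ± 0.31 (edgeR adjusted p = 0.0737) and was called in 7 of 19 alternatives. The activin subunit INHBB had one of 2.52 ± 0.79 (edgeR adjusted p = 0.096) and was called in 3 of 19. TGFB1 had 6 counts with and 0 without the inhibitor, and NODAL, another ligand gene of the family, had 2 with and 39 without. Neither was tested.

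None of 7 tested receptor genes was called (median log2 difference 0.45). TGFBR1, the receptor kinase that phosphorylates SMAD2 and SMAD3, was at 7.59 to 14.98 CPM without and 12.1 to 17.1 CPM with the inhibitor, ranges that overlap, and its log2 difference was 0.33 ± 0.41. TGFBR2, which binds the ligand, had a log2 difference of 0.82 ± 0.38 (edgeR adjusted p = 0.336). Of 21 Smads, co-repressors and feedback regulators only PMEPA1 was called. SMAD2 was at 33.3 to 56.6 CPM and 36.3 to 44.7 CPM, with a log2 difference of 0.02 ± 0.25. SMAD4 differed by 0.19 ± 0.37 and SKIL, a co-repressor that is a common target of the pathway, by -0.07 ± 0.51 at 2.64 to 5.39 CPM and 2.23 to 4.07 CPM.

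The list of Tgf-beta response genes did not move as a block. Of 47 tested members 4 fell and 3 rose, where 0.758% of all tested genes fell and 1.92% rose. A log2 change below 0 was seen in 29 of the 47, against 4922 of all 9888 (median -0.59, against 0.000902 for all tested genes). Scaling by library totals called 7 falls and 3 rises. When early replicate 1 of the inhibitor group was left out, there were 5 falls and 3 rises, without that of the untreated group 4 and 2, and without both 5 and 2. The falls were PMEPA1, COL7A1, COL5A1 and FN1. COL5A1, a fibril collagen, was at 110.5 and 131 CPM in the early and 124 and 105 CPM in the later libraries without the inhibitor, against 21.01, 29.1 and 37.1 CPM early and 17.1 and 18.1 CPM later with it. That is a narrow band in each group with a gap between them, and a fall of 2.37 ± 0.31 (log2, edgeR adjusted p = 2.48e-04). FN1, fibronectin, stood at 47.1 and 88.97 CPM in the early and 93.7 and 76.3 CPM in the later libraries without the inhibitor, against 16.3, 5.81 and 7.83 CPM early and 34.2 and 31.2 CPM later with it. The early libraries with the inhibitor were the lowest, and the later ones lay between them and the untreated libraries. Its log2 change was -2.10 ± 0.39 (edgeR adjusted p = 0.00371). The rises were TIMP1, MMP1 and VEGFA, whose values are given with the markers and with the protease and hypoxia lists. The summed fibroblast and dermal papilla markers were lower with the inhibitor too, at 264 to 501 CPM against 572 to 1126 CPM. That sum includes COL5A1 itself, so it is not separate from the COL5A1 fall. The part of these markers in the collagen and FN1 falls was not tested.

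Other textbook targets were not called. CTGF, a matricellular protein, was at 0 to 4.04 CPM and 0.678 to 2.23 CPM, within the floors of several of these libraries. TGFBI, a matrix adhesion protein, was at 6.73 and 22.9 CPM in the early and 6.55 and 23.2 CPM in the later libraries without the inhibitor, against 2.71, 4.65 and 2.99 CPM early and 2.97 and 7.05 CPM later with it. The later replicate 2 with the inhibitor overlaps the lower pair of untreated libraries, and the log2 difference of -1.91 ± 0.54 missed the threshold (edgeR adjusted p = 0.0619), though 4 of the 19 alternatives called it. MMP13 differed by -2.72 ± 0.79 with overlapping libraries (edgeR adjusted p = 0.0705), and 4 of 19 alternatives called it.

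Most genes of growth control were not called. Among 14 members of the cytostatic programme, ID1 fell and ID2 rose (median -0.42), where 2.68% of all tested genes were called. ID1, an inhibitor of differentiation that BMP and Tgf-beta signals regulate, was at 136 and 118 CPM in the early and 149 and 222 CPM in the later libraries without the inhibitor, against 16.3, 79.6 and 37.3 CPM early and 61.7 and 91.7 CPM later with it. Its lowest value without the inhibitor was above its highest with it, and the log2 change was -1.40 ± 0.37 (edgeR adjusted p = 0.0461), a call lost under 11 of 19 alternatives, among them leaving out either or both early libraries numbered 1. ID2, its paralog, whose entry in the files is a provisional locus given this symbol by the reference table, rose, from a range of 8.81 to 32.7 CPM to one of 37.2 to 67.8 CPM (log2 1.58 ± 0.35, edgeR adjusted p = 0.0144). The ID2 call was lost under 3 of 19 alternatives. CDKN1A, the cell cycle inhibitor p21, was at 221 to 618 CPM without and 269 to 859 CPM with the inhibitor and differed by 0.07 ± 0.36. CDK6, a kinase that drives entry into the cycle, was higher in every inhibitor library, at 67.5 to 88.8 CPM against 20.2 to 54.9 CPM, and just missed the threshold (log2 0.91 ± 0.25, edgeR adjusted p = 0.0518), with a call in 4 of 19 alternatives.

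No gene of the cell division lists was called, though most had a fitted log2 difference below 0. In S phase, 25 of 26 tested genes had a log2 difference below 0 (median -0.69), and in G2 and mitosis 23 of 27 (median -0.37). Of all 9888 tested genes 4922 were below 0 (median 0.000902). PCNA, the sliding clamp of DNA replication, was at 209 and 164 CPM in the early and 199 and 107 CPM in the later libraries without the inhibitor, against 30.5, 116 and 77.6 CPM early and 86.2 and 125 CPM later with it. The lowest value is that of early replicate 1 with the inhibitor, and the groups overlap (log2 -0.92 ± 0.47, edgeR adjusted p = 0.394). MCM5, a subunit of the replicative helicase, differed by -1.18 ± 0.54 and PLK1, a mitotic kinase, by -0.90 ± 0.58 (edgeR adjusted p = 0.319 and 0.52). Without early replicate 1 of the inhibitor group the S phase median was -0.58, and that of G2 and mitosis -0.44.

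Among 19 genes of the epithelial to mesenchymal transition, FN1 and VIM fell and OVOL1 rose (median 0.34). Of all tested genes 0.758% fell and 1.92% rose. VIM, the mesenchymal intermediate filament vimentin, was at 135 and 28.2 CPM in the early and 17.1 and 13.5 CPM in the later libraries without the inhibitor, against 8.13, 13.9 and 10.8 CPM early and 10.4 and 16.1 CPM later with it. The highest value belongs to early replicate 1 without the inhibitor, and the later libraries overlap. VIM fell by 1.53 ± 0.37 (log2, edgeR adjusted p = 0.0264), a call lost under 10 of 19 alternatives, among them leaving that library out. OVOL1, a transcription factor of epithelial differentiation, was at 24.7 to 45.8 CPM without and 50.5 to 139 CPM with the inhibitor and rose by 1.35 ± 0.28 (edgeR adjusted p = 0.00902). Its call was lost under 3 of 19 alternatives. SNAI2, the factor Slug, was lower in all 5 inhibitor libraries, 33.2 to 48.4 CPM against 66.95 to 83.5 CPM, but did not pass (log2 -0.76 ± 0.22, edgeR adjusted p = 0.0682), although 6 of 19 alternatives called it. CDH1, E-cadherin, differed by 0.80 ± 0.25 (edgeR adjusted p = 0.0995) and was called in 3 of 19.

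The adhesion apparatus of basal keratinocytes held a single fall and a single rise. Of 22 tested members of the hemidesmosome, laminin-332 and anchoring fibril list, COL7A1 fell and FERMT1 rose (median 0.02, and -0.11 when scaled by library totals). The shares over all tested genes were 0.758% and 1.92%. FERMT1, kindlin-1, which activates integrins at focal contacts, was at 18.9 and 45.8 CPM in the early and 55.2 and 63.3 CPM in the later libraries without the inhibitor, against 90.1, 114 and 83.6 CPM early and 118 and 109 CPM later with it. Each inhibitor library exceeded the 4 others, and the log2 change was 1.22 ± 0.25 (edgeR adjusted p = 0.00782). The FERMT1 call was lost under 3 of 19 alternatives, among them leaving out early replicate 1 of the untreated group. Of the laminin-332 chains, LAMA3 differed by 0.34 ± 0.24 and LAMB3 by -0.03 ± 0.33 on the log2 scale. COL17A1 differed by 0.52 ± 0.32, ITGA6 by 0.13 ± 0.26 and ITGA3 by 0.85 ± 0.34, none of them called. None of 15 basal keratinocyte genes was called (median 0.17). KRT5 differed by -0.04 ± 0.36 and KRT14 by -0.20 ± 0.34.

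Several proteases and protease inhibitors of the matrix rose. Of 31 tested members 6 were higher and none lower, against 1.92% and 0.758% of all tested genes. The median was 1.29, against 0.000902 for all genes. MMP1, the interstitial collagenase, was at 37.7 and 105 CPM in the early and 253 and 577 CPM in the later libraries without the inhibitor, against 2418, 933 and 745 CPM early and 2922 and 2046 CPM later with it. Levels without the inhibitor were higher in the later libraries, yet the highest of them stayed below every inhibitor library. MMP1 rose by 3.40 ± 0.53 (log2, 10.6-fold, edgeR adjusted p = 8.46e-04). MMP3, stromelysin-1, was close to undetected without the inhibitor: 2.69 and 1.32 CPM early and 0.569 and 2.53 CPM later. With it MMP3 reached 92.9, 27.9 and 13.4 CPM early and 55.8 and 11.1 CPM later, a log2 change of 4.54 ± 0.70 (edgeR adjusted p = 0.0013). SERPINB2, an inhibitor of urokinase, was at 26.9 and 29.5 CPM in the early and 27.3 and 287 CPM in the later libraries without the inhibitor, against 1427, 325 and 475 CPM early and 493 and 637 CPM later with it. The untreated libraries other than later replicate 2 lay between 26.9 and 29.5 CPM, and that library at 287 CPM was still below the lowest with the inhibitor. Its log2 change was 3.28 ± 0.54 (edgeR adjusted p = 0.00156). CST6, a cystatin of the upper epidermis, and ADAMTS1, a secreted metalloproteinase, were the other rises with TIMP1 (log2 2.47 ± 0.63 and 1.95 ± 0.46). Both calls were lost under 11 of 19 alternatives. ADAMTS1 was at 4.74, 38.9 and 39.8 CPM in the early inhibitor libraries, so that early replicate 1 was below every untreated library, 7.05 to 12.1 CPM.

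Besides MMP1 and MMP3, none of the other MMP genes in the list was called. MMP13 and the gelatinase MMP9 had negative log2 differences that did not pass (-2.72 ± 0.79 and -2.75 ± 0.84, edgeR adjusted p = 0.0705 and 0.089). Without early replicate 1 of the inhibitor group 5 members of the list rose, without that of the untreated group 4, and without both 5.

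**Figure D2:**
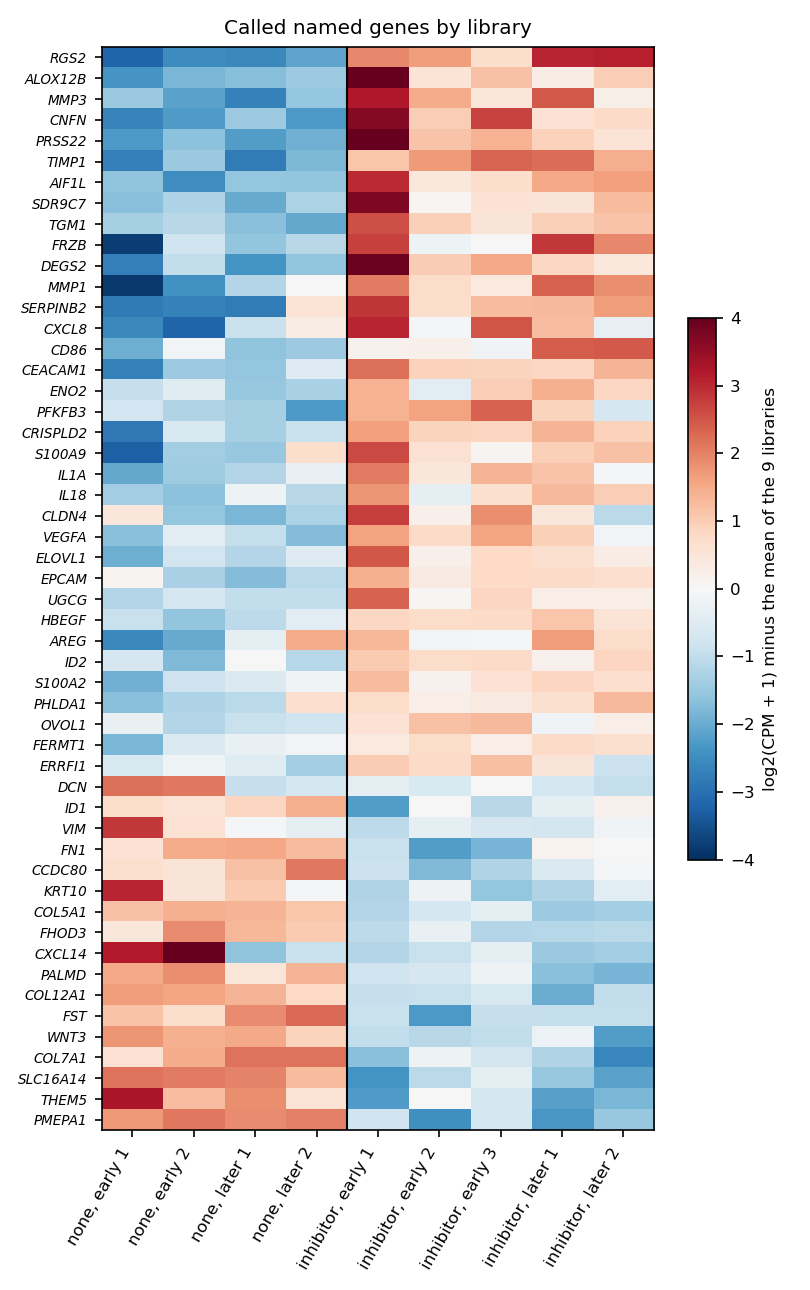
The 52 called genes among those named by rule, ordered by log2 change from RGS2 at the top to PMEPA1 at the bottom, across the 9 libraries (columns; the line separates untreated from inhibitor libraries). Colour is log2(CPM + 1) minus the gene's mean over the 9 libraries, in which early replicate 1 with the inhibitor is the reddest column for many of the rises, and CXCL14, DCN and VIM are highest in the early untreated columns.

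Some genes of terminal differentiation rose, and KRT10 fell. Of 43 tested members of the differentiation and cornified envelope list 7 rose and 1 fell, against 1.92% and 0.758% of all tested genes. A log2 difference above 0 was seen in 36 of 43, against 4950 of all 9888, and the median was 0.67. CNFN, a cornified envelope protein, was at 2.69 and 3.96 CPM in the early and 7.69 and 3.80 CPM in the later libraries without the inhibitor, against 301, 45.9 and 152 CPM early and 34.2 and 39.3 CPM later with it. All inhibitor libraries were above the others, the early ones most (log2 4.06 ± 0.76, edgeR adjusted p = 0.0039). TGM1, the transglutaminase that crosslinks the envelope, went from a range of 0.422 to 1.76 CPM to one of 7.37 to 34.6 CPM, a log2 change of 3.56 ± 0.62 (edgeR adjusted p = 0.00274). IVL, involucrin, an envelope precursor, was at 245 and 377 CPM in the early and 368 and 2021 CPM in the later libraries without the inhibitor, against 24318, 1675 and 2963 CPM early and 2387 and 4311 CPM later with it. A single library, early replicate 1 with the inhibitor, stood far above the rest, and early replicate 2 lay below the untreated later replicate 2. IVL had a log2 change of 3.22 ± 0.79 (edgeR adjusted p = 0.0299), lost under 9 of 19 alternatives. The other rises were PRDM1, a repressor that promotes cornification (log2 2.09 ± 0.50), SCEL, sciellin (1.49 ± 0.37), LYPD3, a surface protein of upper keratinocytes (1.28 ± 0.33), and OVOL1. The calls of PRDM1, SCEL and LYPD3 were lost under 8, 11 and 12 of 19 alternatives.

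KRT10, the keratin of the first suprabasal layers, was the lone fall of its list. It was at 13104 and 2284 CPM in the early and 3286 and 1510.1 CPM in the later libraries without the inhibitor, against 688, 1380.0 and 548 CPM early and 697 and 1196 CPM later with it. The untreated libraries were all higher, and early replicate 1 without the inhibitor was far above the other 3. KRT10 fell by 2.24 ± 0.44 (log2, 4.73-fold, edgeR adjusted p = 0.00576), a call lost under 4 of 19 alternatives, including leaving out that library. KRT1, its partner, had a log2 difference of -2.17 ± 0.72 that did not pass (edgeR adjusted p = 0.128). The desmosomal genes DSG1 and DSP differed by -0.15 ± 0.32 and -0.31 ± 0.28. LOR, loricrin, was higher in all 5 inhibitor libraries, 40.7 to 1081 CPM against 14.5 to 30.98 CPM, without passing (edgeR adjusted p = 0.096). Leaving out early replicate 1 of the inhibitor group left 4 rises and 1 fall in the list. Leaving out that of the untreated group left 3 rises and no fall, as did leaving out both.

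Some enzymes that make the lipid barrier of the epidermis rose. Of 21 tested, 5 rose and none fell, against 1.92% and 0.758% of all tested genes. A log2 difference above 0 was seen in 19, against 4950 of all 9888, and the median was 1.17. DEGS2 makes the phytoceramides of the barrier. It was at 9.43 and 33.5 CPM in the early and 12.2 and 21.9 CPM in the later libraries without the inhibitor, against 1044, 139 and 195 CPM early and 121 and 90.7 CPM later with it. Early replicate 1 with the inhibitor was the highest, and the other 4 inhibitor libraries were still above every untreated one. The log2 change was 3.47 ± 0.71 (edgeR adjusted p = 0.00812), a call lost under 3 of 19 alternatives. ALOX12B, the lipoxygenase that starts the binding of ceramides to the envelope, had 5 counts in all untreated libraries together, at 0 to 0.844 CPM, against 103, 6.39 and 10.4 CPM early and 5.20 and 9.07 CPM later with the inhibitor. It had a log2 change of 4.81 ± 1.24 (edgeR adjusted p = 0.0386), lost under 9 of 19 alternatives. SDR9C7, which acts in the same pathway, was at 0.854 to 2.20 CPM and 6.97 to 97.6 CPM (log2 3.65 ± 0.96), a call lost under 12 of 19 alternatives. ELOVL1, a fatty acid elongase, and UGCG, which makes glucosylceramide, rose by 2.01 ± 0.49 and 1.86 ± 0.42 (edgeR adjusted p = 0.0265 and 0.0159), and each call was lost under 8 of 19 alternatives. CERS3, the ceramide synthase of the barrier, differed by 1.22 ± 0.34 and missed the threshold (edgeR adjusted p = 0.0614), with a call in 5 of 19 alternatives. Without early replicate 1 of the inhibitor group 4 of the 21 were called. Without early replicate 1 of the untreated group none was, although the median was then 1.63, and without both none was either, with a median of 1.33.

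**Figure D3:**
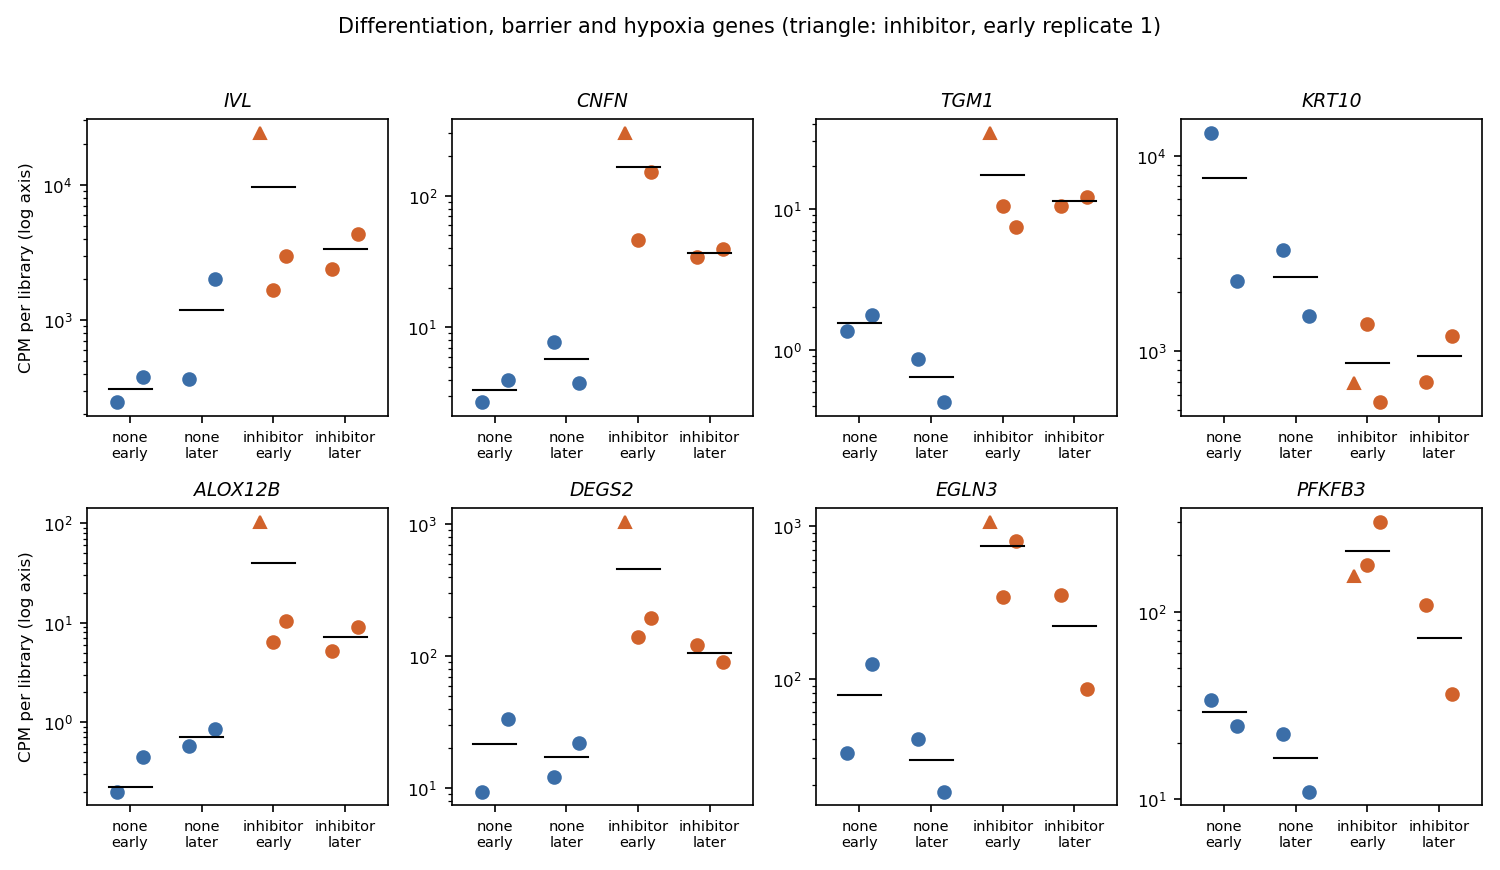
Level of 8 differentiation, barrier and hypoxia genes in each of the 9 libraries, in CPM on a log axis, by treatment and passage class; points are libraries, bars are group means, the triangle is early replicate 1 with the inhibitor, and a value of 0 is drawn at 0.2 CPM. The triangle is the highest point for IVL, CNFN, TGM1, ALOX12B, DEGS2 and EGLN3, but not for PFKFB3, and KRT10 is the one gene shown that is lower with the inhibitor.

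A few alarmins and growth factors of the wound response rose. Of 17 tested members of the wound list 4 rose and none fell, against 1.92% and 0.758% of all tested genes. All 17 had a log2 difference above 0, against 4950 of all 9888 (median 0.99). HBEGF, an EGF receptor ligand that drives keratinocyte migration, was at 29.6 and 18.1 CPM in the early and 26.8 and 40.9 CPM in the later libraries without the inhibitor, against 98.96, 93.5 and 94.7 CPM early and 120.4 and 81.6 CPM later with it. The groups did not overlap, and HBEGF had a log2 change of 1.82 ± 0.27 (edgeR adjusted p = 6.07e-04), kept under all 19 alternatives. S100A2, a calcium-binding protein of basal and wounded epidermis, was at 1825 and 3877 CPM in the early and 4648 and 6288 CPM in the later libraries without the inhibitor, against 16569, 7808 and 10323 CPM early and 12584 and 11007 CPM later with it. That is a 2.96-fold rise with separate groups (log2 1.56 ± 0.31, edgeR adjusted p = 0.00565), a call lost under 3 of 19 alternatives. S100A9 and S100A12, alarmins of inflamed epidermis, had log2 changes of 2.33 ± 0.60 and 2.61 ± 0.69, and early replicate 1 with the inhibitor had the highest level of both, 1188 CPM and 20802 CPM. Their calls were lost under 10 and 12 of 19 alternatives. The wound keratins KRT6A, KRT16 and KRT17 differed by 0.33 ± 0.32, 0.50 ± 0.49 and 0.62 ± 0.40 and none was called. Without early replicate 1 of the inhibitor group 2 members rose, without that of the untreated group 1, and without both 1. Scaling by library totals called 2.

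HBEGF was joined by ERRFI1 and AREG in the EGF list, in which 3 of 12 tested genes rose and none fell (median 0.75). Of all tested genes 1.92% rose and 0.758% fell. ERRFI1, a feedback inhibitor of the EGF receptor, was at 21.9 to 50.7 CPM and 31.2 to 133 CPM, ranges that overlap (log2 1.13 ± 0.30, edgeR adjusted p = 0.0479). AREG, the ligand amphiregulin, was at 2.69 and 4.40 CPM in the early and 15.7 and 60.3 CPM in the later libraries without the inhibitor, against 53.5, 19.2 and 20.04 CPM early and 68.4 and 35.3 CPM later with it. The groups separate at early passage and overlap at later passage (log2 1.70 ± 0.46, edgeR adjusted p = 0.0492). Both calls were lost under 14 of the 19 alternatives, and 1 of the 12 genes was called without either or both early libraries numbered 1, or when scaled by library totals. EGFR itself differed by 0.17 ± 0.25.

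Cytokines changed in both directions. Of 7 tested, 3 rose and 1 fell (median 1.12), against 1.92% and 0.758% of all tested genes. When early replicate 1 of the inhibitor group was left out, 4 rose and 1 fell, and without that of the untreated group or without both 2 rose and 1 fell. IL1A, the interleukin stored in keratinocytes, was at 8.08 and 12.8 CPM in the early and 15.4 and 29.1 CPM in the later libraries without the inhibitor, against 156, 49.4 and 95.3 CPM early and 81.03 and 34.3 CPM later with it. The lowest inhibitor library was above the highest of the others, and the log2 change was 2.28 ± 0.37 (edgeR adjusted p = 0.00129). IL18 rose by 2.24 ± 0.47 (edgeR adjusted p = 0.0115), with early replicate 2 at 12.2 CPM just under the highest untreated library, and its call was lost under 5 of 19 alternatives. CXCL8, the neutrophil chemokine, was at 5.39 and 3.08 CPM in the early and 19.6 and 45.6 CPM in the later libraries without the inhibitor, against 314, 34.9 and 214 CPM early and 88.5 and 29.2 CPM later with it. Its groups were far apart at early passage and overlapped at later passage (log2 5.58 ± 0.90 early and 0.88 ± 0.70 later). CXCL14, a chemokine made by healthy epithelium, fell. It was at 1395 and 3957 CPM in the early and 49.3 and 81.8 CPM in the later libraries without the inhibitor, against 67.1, 81.9 and 117 CPM early and 53.5 and 57.4 CPM later with it. The pair of early untreated libraries stood apart from the other 7, and the log2 change was -4.91 ± 0.65 early and -0.24 ± 0.68 later. Pooled over passages, edgeR gave adjusted p = 0.00285 for CXCL8 and 0.00328 for CXCL14, and each call was lost under 1 of 19 alternatives.

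RGS2 is also a classical target of cyclic AMP, and 3 of 17 tested cAMP response genes rose: RGS2, CRISPLD2 and AREG (median 0.40). The share of all tested genes that rose was 1.92%. Without either or both early libraries numbered 1 there were 2 rises. CRISPLD2, a secreted lipopolysaccharide-binding protein, was at 10.8 and 55.5 CPM in the early and 32.7 and 44.7 CPM in the later libraries without the inhibitor, against 264, 159 and 155 CPM early and 219 and 162 CPM later with it. The lowest inhibitor library was at 154.5 CPM and the highest of the others at 55.5 CPM (log2 2.36 ± 0.36, edgeR adjusted p = 6.46e-04). The phosphodiesterases PDE4B and PDE4D, which break cAMP down, were higher in all 5 inhibitor libraries, at 2.99 to 9.07 and 6.04 to 10.5 CPM against 0.422 to 2.69 and 0 to 3.37 CPM, and just missed the threshold (edgeR adjusted p = 0.0553 and 0.0619), each with a call in 3 of 19 alternatives. FOS differed by -0.25 ± 0.54, and none of 20 immediate early and heat shock genes was called (median 0.12). When early replicate 1 of the inhibitor group was left out, 1 of the 20 fell, HSPB1, a heat shock protein. Forskolin, which raises cAMP, is named by the labels for other groups of the series, and whether it was in both media compared here is not given in the sources used here.

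Genes of low oxygen and sugar breakdown rose in part. Of 30 tested 5 rose and none fell, against 1.92% and 0.758% of all tested genes. A log2 difference above 0 was seen in 28, against 4950 of all 9888 (median 0.57). PFKFB3, an activator of glycolysis induced by hypoxia, was at 33.7 and 24.7 CPM in the early and 22.2 and 10.97 CPM in the later libraries without the inhibitor, against 154, 177 and 301 CPM early and 108 and 36.3 CPM later with it. The early inhibitor libraries were highest, and later replicate 2 was just above the highest untreated library (log2 2.49 ± 0.44, edgeR adjusted p = 0.00273). VEGFA, the angiogenic growth factor, was at 18.98 to 49.3 CPM and 60.4 to 201 CPM (log2 2.04 ± 0.48, edgeR adjusted p = 0.025). EGLN3, an oxygen-sensing hydroxylase, ADM, the peptide adrenomedullin, and the enolase ENO2 rose by 3.05 ± 0.78, 2.45 ± 0.64 and 2.68 ± 0.69 on the log2 scale. LDHA differed by 0.07 ± 0.32 and SLC2A1, the main glucose transporter, by 0.37 ± 0.41, and neither was called. The glycolytic genes ALDOA and HK2 had larger log2 differences, 1.27 ± 0.38 and 1.88 ± 0.52. Both missed the threshold (edgeR adjusted p = 0.0794 and 0.0585), each with a call in 4 of 19 alternatives. PFKFB3 kept its call under all alternatives, while EGLN3, ADM, ENO2 and VEGFA lost theirs under 10, 13, 13 and 6 of 19. When early replicate 1 of the inhibitor group was left out, 2 of the 30 rose, without that of the untreated group 1, and without both 1. Scaling by library totals called 2.

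In the lists of other signalling pathways of the follicle most genes were not called, where 2.68% of all tested genes were. Of 16 tested Wnt and R-spondin genes only WNT3, a ligand, fell, from 14.8 and 11.5 CPM early and 12.2 and 7.59 CPM later to 1.36, 1.16 and 1.38 CPM and 2.97 and 0 CPM (log2 -2.85 ± 0.54, edgeR adjusted p = 0.00442). The groups did not overlap. AXIN2, the usual readout of the pathway, differed by 0.12 ± 0.38. ID1 and ID2 were the only calls among 9 BMP genes, and none of 9 Notch genes was called (median -0.42). Of 15 follicle stem cell and outer root sheath genes PHLDA1 rose, from a range of 98.3 to 507 CPM to one of 382 to 779.8 CPM (log2 1.43 ± 0.34, edgeR adjusted p = 0.0259). Its call was lost under 5 of 19 alternatives, among them leaving out early replicate 1 of the untreated group. KRT15 differed by 1.06 ± 0.63. SOX9 was at 0 to 0.422 CPM and 0 to 3.39 CPM and LGR5 at 0 and 0 to 0.691 CPM, within the floors of most of these libraries. In the simple epithelium and tight junction list CEACAM1, EPCAM and CLDN4 rose out of 14 (median 0.94), where 1.92% of all tested genes rose. CEACAM1, a cell adhesion molecule, was at 8.08 and 20.7 CPM in the early and 19.4 and 40.5 CPM in the later libraries without the inhibitor, against 274, 110.4 and 109 CPM early and 105 and 150.1 CPM later with it. CEACAM1 belongs to a family with close copies, and how the authors' counting divided shared reads is not given in the sources used here. The groups were well separated (log2 2.74 ± 0.45, edgeR adjusted p = 0.00156). EPCAM, an epithelial adhesion molecule, rose by 1.86 ± 0.39 and CLDN4, a claudin, by 2.17 ± 0.55. The CLDN4 call was lost under 12 of 19 alternatives and the EPCAM call under 3. The list held 2 rises without early replicate 1 of the inhibitor group. None of 13 interferon response, 11 antigen presentation or 27 cholesterol and fatty acid genes was called.

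**Figure D4:**
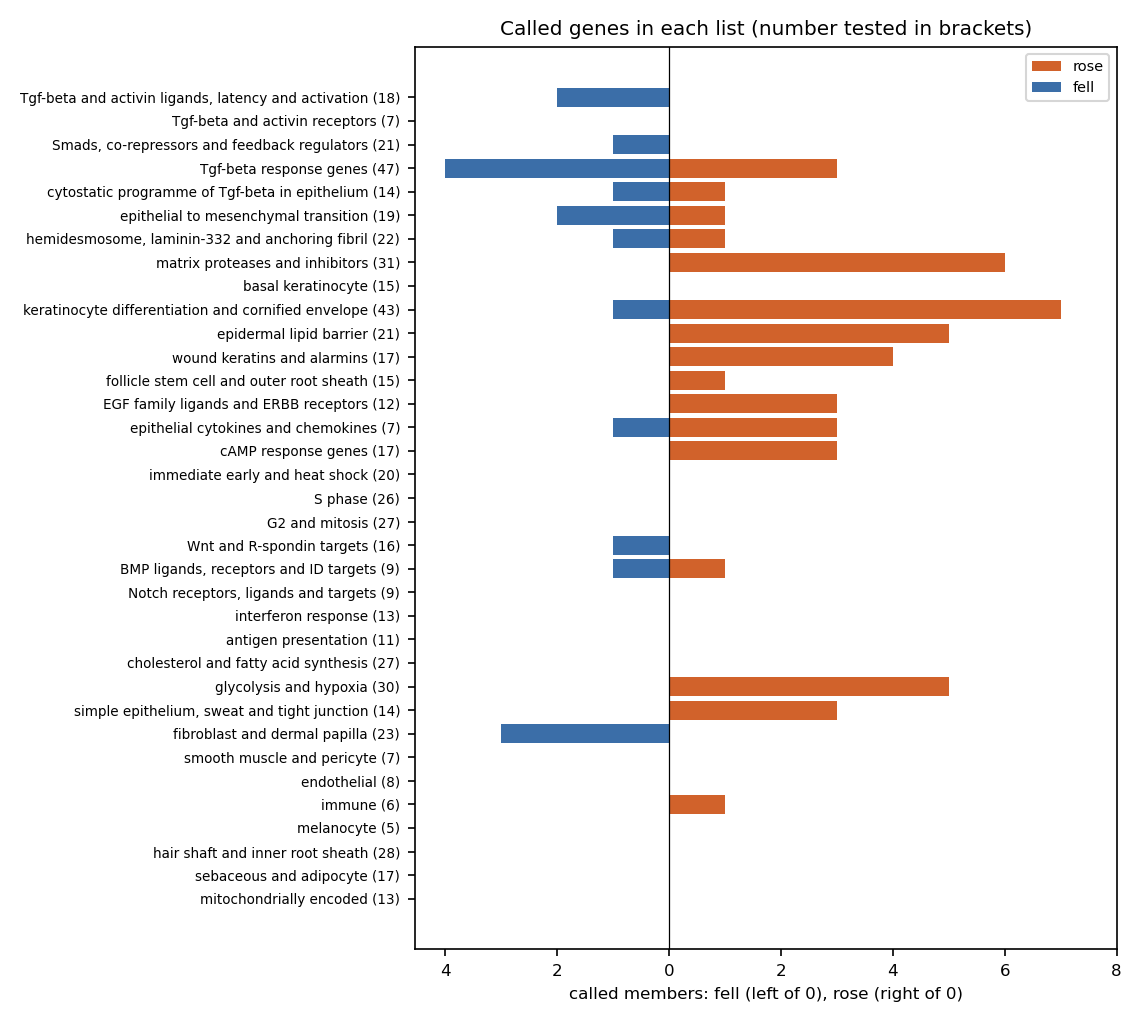
Number of called genes in each gene list that were higher (right) or lower (left) with the inhibitor, pooled over passages, with the number of tested members in brackets. The differentiation list has the most rises, 7 of 43, and the Tgf-beta response list the most falls, 4 of 47, beside 3 rises. Over all tested genes 1.92% rose and 0.758% fell.

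Markers of other skin cells moved with the treatment in some lists. The summed level of 25 fibroblast and dermal papilla genes was 264 to 501 CPM with and 572 to 1126 CPM without the inhibitor. Of its 23 tested members COL5A1, VIM and DCN fell and none rose (median -0.73), where 0.758% of all tested genes fell and 1.92% rose. Without early replicate 1 of the inhibitor group 2 fell, and without that of the untreated group or both 1 fell. COL3A1, a defining collagen of dermal fibroblasts, was at 244 and 62.99 CPM in the early and 12.8 and 10.1 CPM in the later libraries without the inhibitor, against 14.9, 63.9 and 31.1 CPM early and 11.2 and 13.1 CPM later with it. Early replicate 1 without the inhibitor was the highest by far, and COL3A1 was not called (log2 -0.99 ± 0.47). Of the defining genes PDGFRA had no count in the untreated libraries and 6 in those with the inhibitor, PDGFRB 9 and LUM 12 counts in all 9. THY1 had 266 counts, at 11.4 to 19.4 CPM without and 5.04 to 21.7 CPM with the inhibitor, ranges that overlap. COL1A1 and COL1A2 had log2 differences of -0.59 ± 0.46 and -0.70 ± 0.46 and were not called. The summed smooth muscle genes were at 46.8 to 73.3 CPM with and 69.9 to 177 CPM without the inhibitor, and none of 7 was called. COL5A1, VIM and DCN are themselves part of the fibroblast sum. The part of these cells in the falls of COL5A1, COL12A1, FN1, VIM and DCN was not tested. In bulk libraries fewer cells of a type and less RNA per cell cannot be told apart. Among 6 immune genes CD86, a co-stimulatory ligand, was called. It was at 0 and 2.64 CPM in the early and 0.285 and 0.422 CPM in the later libraries without the inhibitor, against 3.39, 3.49 and 2.53 CPM early and 20.1 and 20.1 CPM later with it, so that the later libraries with the inhibitor stood above the other 7. The CD86 call was lost under 11 of 19 alternatives, among them leaving out either or both early libraries numbered 1. None of 8 endothelial, 5 melanocyte, 28 hair shaft, 17 sebaceous or 13 mitochondrially encoded genes was called.

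Other large changes came from genes named by size, under a rule that admits only genes whose groups do not overlap. PRSS22, a serine protease of epithelia, rose from a range of 2.69 to 4.85 CPM to one of 25.2 to 302 CPM, with early replicate 1 the highest (log2 4.02 ± 0.72, edgeR adjusted p = 0.00328). AIF1L, an actin-bundling protein, was at 8.08 and 3.96 CPM in the early and 8.54 and 8.44 CPM in the later libraries without the inhibitor, against 218, 36.02 and 43.99 CPM early and 78.8 and 85.6 CPM later with it. The highest of its libraries was again early replicate 1 (log2 3.72 ± 0.65). FRZB, a secreted antagonist of Wnt ligands, went from a range of 0 to 7.05 CPM to one of 11.04 to 97.4 CPM (log2 3.48 ± 0.62, edgeR adjusted p = 0.00341). Each of these calls held under all 19 alternatives.

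Among the falls, COL12A1, a collagen that associates with fibrils, was at 49.8 and 46.2 CPM in the early and 39.3 and 26.6 CPM in the later libraries without the inhibitor, against 7.46, 7.55 and 9.21 CPM early and 2.97 and 7.05 CPM later with it. The highest level with the inhibitor was 9.21 CPM (log2 -2.64 ± 0.35, edgeR adjusted p = 2.75e-04). PALMD, a protein related to paralemmin, was at 61.96 and 77.96 CPM in the early and 29.6 and 55.3 CPM in the later libraries without the inhibitor, against 11.5, 12.8 and 18.2 CPM early and 5.95 and 5.04 CPM later with it. It had the smallest p among the falls (log2 -2.59 ± 0.29, edgeR adjusted p = 5.59e-05). FHOD3, a formin that organises actin, fell from a range of 13.5 to 37.9 CPM to one of 3.68 to 7.55 CPM (log2 -2.51 ± 0.36). SLC16A14, a member of the monocarboxylate transporter family, went from a range of 62.4 to 119 CPM to one of 4.07 to 19.1 CPM (log2 -3.41 ± 0.62), THEM5, a mitochondrial thioesterase, from a range of 24.9 to 168 CPM to one of 2.71 to 16.9 CPM (log2 -3.49 ± 0.62), and CCDC80, a matrix protein, from a range of 12.3 to 39.2 CPM to one of 1.74 to 8.06 CPM (log2 -2.12 ± 0.39). All 6 calls held under every one of the 19 alternatives.

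The effect was then compared between passage classes. At early passage 129 genes were called (1.30% of tested genes), 84 higher (0.850%) and 45 lower (0.455%). At later passage 31 were called (0.314%), 19 higher (0.192%) and 12 lower (0.121%). The early comparison has 5 libraries and the later one 4, so the counts do not compare the size of the effects. Single libraries weighed on both counts. Early, 55 and 71 genes were called without replicate 1 or 3 of the inhibitor group, 9 and 35 without replicate 1 or 2 of the untreated group, and 11 without both libraries numbered 1. Later, 6 and 3 genes were called without replicate 1 or 2 of the inhibitor group and 11 without either untreated library, and the count moved to 50 and 17 without early replicate 1 or 3 of the inhibitor group, which enter it only through the shared estimate of spread, scaling and filter. No gene was called for a difference between the passages (0.00%) by edgeR or by limma voom, and DESeq2 called 1. Without the filter on low counts edgeR called 39. At an unadjusted p under 0.05, 267 genes differed (2.70%). The early and later libraries share no sample, and the genes called in either class were looked up in the other. Both classes share the fit's estimate of spread, scaling and filter, and the labels do not say whether later cultures descend from early ones. The look-up is therefore not an independent check. Of the 84 genes that rose early, 82 had a positive log2 change later (median 1.38, against 2.53 early), and in 73 both later inhibitor libraries lay above both others, 86.9% against 19.4% of all tested genes. Of the 45 that fell early, 38 had a negative change later (median -1.29, against -2.53 early), and 32 were separated, 71.1% against 20.6%. Of the 19 that rose later, 17 were separated early, where 17.6% of all tested genes were. Of the 12 that fell later, 8 were separated early, where 15.9% of tested genes were. In all, 13 genes were called in both classes by themselves, and all 13 had the same sign: RGS2, TIMP1, LMO7, GALNT16, TMEFF2, OAF, SLC14A1 and the provisional locus LOC102154078 rose, and PMEPA1, COL5A1, COL12A1, PALMD and CCDC109B fell.

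**Figure D5:**
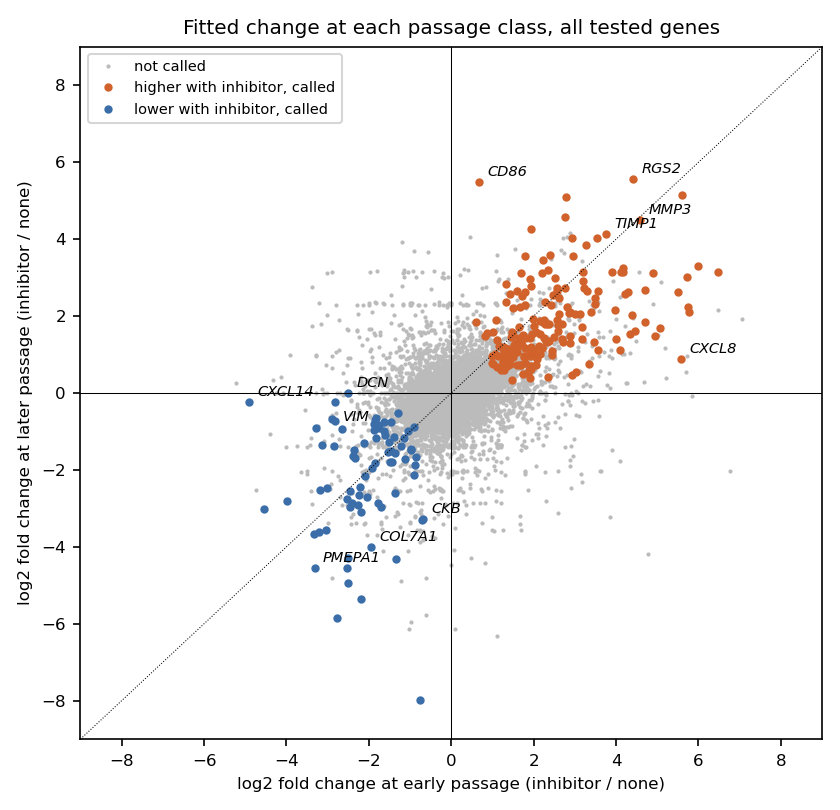
Fitted log2 fold change with against without the inhibitor at early passage (x axis) and later passage (y axis), 1 point per tested gene; coloured points were called in the pooled comparison and the dotted line marks equal change. All 265 called genes have the same sign on both axes, which calling them on the mean of both changes favours. CXCL14, DCN and VIM lie far from the dotted line on the early side and CD86 and CKB on the later side.

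Among the genes with the smallest p for a difference between passages were CXCL14 and CKB, chosen here after their values were seen. CXCL14 differed by 4.67 ± 0.93 between the passages' log2 changes (edgeR adjusted p = 0.481). Its levels in the later untreated libraries lay close to those with the inhibitor. CKB, the brain-type creatine kinase, was at 155 and 271 CPM in the early and 228 and 97.02 CPM in the later libraries without the inhibitor, against 125, 108 and 163 CPM early and 20.8 and 12.1 CPM later with it. The later libraries with the inhibitor were the lowest, and the difference between passages was -2.58 ± 0.58 (edgeR adjusted p = 0.62). A provisional locus, LOC100686502, had almost the same values in each library, so the counts of CKB and of that entry may share reads. Neither difference between passages passed the threshold.

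Levels of the 4 markers outside these organoids are given as a description, in CPM of all gene counts without further scaling, so they compare only roughly with the scaled values above. In hair follicle tissue RGS2 was at 17.1 and 23.96 CPM and TIMP1 at 148 and 112 CPM. RGS2 in tissue lay between untreated and treated organoids, and TIMP1 within the range of untreated ones. PMEPA1 was at 61.4 and 57.9 CPM and COL7A1 at 12.8 and 5.32 CPM in follicle tissue, above and below the untreated organoids. The epidermis-derived organoids, which were all grown with the inhibitor and have 1 library per passage class, had RGS2 at 316 CPM early and 31.8 CPM later, and TIMP1 at 3545 CPM and 828 CPM. Their PMEPA1 counts were 4 and 1, and their COL7A1 counts 2 and 2. With no untreated epidermis-derived library, no comparison of the inhibitor was made in them.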

How the data were processed

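Bulk sorted cells were profiled by CEL-seq2 and sequenced on a NextSeq500 with 75 bp paired ends, per the labels' protocols. Per the submitters' processing notes, the genome build was CanFam3.1 and the tools included BWA 0.6.2-r126. Which annotation and counter were used, and how molecular barcodes were treated, is not given in the sources used here. The deposited values are estimated counts per gene, with 7.77 to 10.7% of entries in the 9 libraries not whole, and they were rounded. Rows that name no gene (0.461 to 1.54% of counts) were left out. The reference table gave 401 of 6699 provisional entries a symbol.

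Counts were tested with edgeR 4.0.16 (R 4.3.3): a mean for each of the 12 groups over 23 libraries, so that all share the estimate of spread, TMM scaling, filterByExpr (9888 genes), the quasi-likelihood test and Benjamini-Hochberg adjustment over all genes, with calls at 0.05. A tested entry not listed in the differentiation-medium libraries was set to 0 there. The pooled effect is the mean of the early and later differences. Standard errors are the log2 change divided by the root of the F statistic. The code was tested on simulated data with 200 changed genes. Alternatives were DESeq2 1.42.0, limma 3.58.1 voom, other scalings, no filter, other sets of libraries, a replicate block and each replicate left out. Library totals of 734647 to 4822410 set the precision, and floors cover counting error only.

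The libraries, the gene lists and the rules were chosen with earlier results of these data known. Genes were named by rule: the 4 markers and other fixed genes, the largest called and non-overlapping rises and falls of the pooled comparison above a mean of 20 CPM, and up to 3 called genes per list and direction. Other list members are named as examples. A few genes are not reported here.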

Additional observations from a re-analysis of the deposited data

How the results depend on the processing

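Of the 62 genes named by rule 52 were called. Of these 27 kept their call under all 19 alternatives, 25 lost it under at least 1, and none changed direction. Counts are for the pooled, early, later and passage-difference comparisons. Without a filter on low counts 640, 512, 153 and 39 genes were called, against 265, 129, 31 and 0. A fit to the 9 libraries alone called 85 early, and one with passage as an additive term 425 pooled. DESeq2 called 1 gene for the passage difference. Leaving out 1 replicate at a time gave 109 to 303 pooled, 9 to 174 early, 3 to 50 later and 0 for the passage difference. Without both early libraries numbered 1, an alternative chosen after their values were seen, the counts were 130, 11, 51 and 0. With a replicate block they were 160, 26, 17 and 0. Early libraries of the same number in both groups had deviations correlated at -0.114 and -0.141 and later ones at 0.0573, so the numbers were not taken as pairs. The cause of these moves was not tested. Scaling by library totals turned the medians of 7 gene lists, all within 0.13 of 0 on the log2 scale, from positive to negative. At these depths a gene under about 4 CPM can go without a count in the shallowest library, so low receptors and ligands could not be compared closely.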

Other observations

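Further genes are described here one by one. They were chosen after their values were seen, from the 190 rises and 75 falls, and stand for no gene group. ETS1, a transcription factor of migrating and inflamed epithelium, was at 14.8 and 21.1 CPM in the early and 21.9 and 29.9 CPM in the later libraries without the inhibitor, against 108, 93.5 and 136 CPM early and 89.9 and 67.5 CPM later with it. The groups were far apart at both passages, and the log2 change was 2.10 ± 0.25 (edgeR adjusted p = 8.92e-05). EHF, an ETS factor of differentiating epithelium, rose from a range of 1.32 to 9.70 CPM to one of 21.2 to 115 CPM (log2 3.21 ± 0.58, edgeR adjusted p = 0.00313). The homeobox genes BARX2, DLX5 and HOXD8 rose by 1.49 ± 0.30, 2.59 ± 0.46 and 2.99 ± 0.43 on the log2 scale. The BARX2 call was lost under 1 of 19 alternatives. HOXD8 was at 1.14 to 4.04 CPM without and 10.8 to 23.04 CPM with the inhibitor, with no overlap. EZR, which ties actin to the membrane, rose by 1.13 ± 0.23, the crosslinker ACTN4 by 1.09 ± 0.26 and the tropomyosin TPM4 by 0.88 ± 0.24 (edgeR adjusted p = 0.00902, 0.0244 and 0.0497). These 3 calls were lost under 3, 8 and 14 of 19 alternatives.

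Among the falls, KITLG, the stem cell factor that melanocytes need, was at 20.2 and 13.2 CPM in the early and 20.2 and 22.4 CPM in the later libraries without the inhibitor, against 0.678, 1.74 and 2.53 CPM early and 5.95 and 1.01 CPM later with it. No library with the inhibitor reached the lowest without it, and the log2 change was -2.74 ± 0.52 (edgeR adjusted p = 0.00397). FGFR2, the receptor for keratinocyte growth factor, fell by 1.71 ± 0.42 on the log2 scale. SMO, which transmits Hedgehog signals, fell by 1.42 ± 0.34, and EDARADD, the adaptor of the ectodysplasin receptor, by 1.34 ± 0.35 (edgeR adjusted p = 0.0289, 0.026 and 0.0389). The calls of FGFR2, SMO and EDARADD were lost under 9, 5 and 9 of 19 alternatives. The secreted factors SEMA3C and MDK and the cytoskeletal protein CSRP2 fell by 1.48 ± 0.32, 1.79 ± 0.41 and 2.01 ± 0.36. SEMA3C lost its call under 4 and MDK under 6 of 19 alternatives, and CSRP2 under none. CSRP2 was at 175 and 55.9 CPM in the early and 65.5 and 35.9 CPM in the later libraries without the inhibitor, against 18.98, 20.9 and 23.7 CPM early and 19.3 and 13.1 CPM later with it. The summed fibroblast markers, among them COL5A1, VIM and DCN, were lower with the inhibitor as well, and their part in these falls was not tested.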
